A study of Homo sapiens with 60 samples.

Results

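Polygalae Radix, the dried root of Polygala used in East Asian medicine and known for its triterpenoid saponins, was given as an ethanol extract to HT29 cells at 3 doses. HT29 is an established human colorectal adenocarcinoma line. Its 3 libraries, 1 per dose, are described here out of 60 in the series. Genes were chosen by their log2 ratio of CPM, the read count scaled to a fixed library total, to the mean of the 3 vehicle libraries. A ratio was taken to grow over the doses where it lay on 1 side of 0 at every dose, was larger in size at each higher dose and reached 2-fold at the high dose. Of 60675 gene IDs in the table, 13213 had a mean of at least 1 CPM over the 4 conditions, and 54 of these had such a ratio, 32 higher and 22 lower than the vehicle.

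The groups were vehicle (DMSO, 3 libraries), low dose (15.2 µg/mL), medium dose (76 µg/mL) and high dose (380 µg/mL), all taken after 24 h. The series profiled herbal decoctions and single herbs by RNA-seq, with the top dose set from the concentration that lowered viability by 20% where this was below the standard dose, and the lower doses diluted from it. The vehicle is labelled 0.1% DMSO per sample and 2% in the series text, and the DMSO content of the extract wells was not found in the labels. Each extract dose is 1 library, so no test was made and no p-value is given. The library names of the extract start with 11 and those of the vehicle with C1, and libraries sharing such a prefix are called a set here (set 11). The labels do not say that the prefix marks a batch, and every sample title carries the same label, BatchC. Extract and library set cannot be told apart in ratios to the vehicle. The high dose against the low dose lies within that set. Nothing in the labels says that the vehicle libraries came from separate cultures.

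Cells that meet toxic or membrane-active compounds call on a few well-known programmes. NRF2 drives antioxidant, glutathione and iron-storage genes. TFEB and TFE3 drive lysosome and autophagy genes through an E-box, and are held in check by mTORC1 together with folliculin (FLCN) and its partner FNIP1. ATF4 drives amino acid synthesis genes such as ASNS and PHGDH, along with stress genes such as GDF15. HT29 is also used as a model of mucin-producing and absorptive gut epithelium.

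Promoters of 4 genes are shown because they hold a motif named here with 2 of these programmes, in genes whose levels followed the dose. They are RefSeq windows (GRCh38.p14) from 250 bases before to 50 bases after the annotated start, written 5′ to 3′ on the gene's strand. Capitals in the first 3 mark CACGTG, the E-box core, searched on both strands. Capitals in ASNS mark TGATGNAAN, the form of the amino acid response element bound by ATF4 and C/EBP proteins. The windows are chr5:131796968-131797267 (minus strand) for FNIP1, chr6:31862772-31863071 (minus strand) for NEU1, chr7:98281436-98281735 (plus strand) for BRI3 and chr7:97872359-97872658 (minus strand) for ASNS.
FNIP1: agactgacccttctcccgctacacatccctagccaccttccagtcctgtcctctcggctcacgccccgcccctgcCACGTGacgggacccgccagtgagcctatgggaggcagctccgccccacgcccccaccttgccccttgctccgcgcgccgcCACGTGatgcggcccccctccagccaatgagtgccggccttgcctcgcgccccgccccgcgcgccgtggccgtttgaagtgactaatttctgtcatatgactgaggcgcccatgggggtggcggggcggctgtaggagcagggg
NEU1: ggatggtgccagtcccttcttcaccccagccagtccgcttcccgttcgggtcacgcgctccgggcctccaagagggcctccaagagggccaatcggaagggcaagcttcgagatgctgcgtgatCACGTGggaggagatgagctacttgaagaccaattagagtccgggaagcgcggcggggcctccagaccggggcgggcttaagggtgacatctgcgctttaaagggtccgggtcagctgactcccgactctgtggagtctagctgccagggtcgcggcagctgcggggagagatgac
BRI3: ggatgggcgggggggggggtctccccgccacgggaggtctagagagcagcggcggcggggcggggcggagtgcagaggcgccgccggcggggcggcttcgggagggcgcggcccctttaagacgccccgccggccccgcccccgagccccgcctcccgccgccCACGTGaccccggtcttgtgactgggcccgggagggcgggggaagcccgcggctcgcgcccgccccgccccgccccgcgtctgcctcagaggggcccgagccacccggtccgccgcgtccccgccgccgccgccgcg
ASNS: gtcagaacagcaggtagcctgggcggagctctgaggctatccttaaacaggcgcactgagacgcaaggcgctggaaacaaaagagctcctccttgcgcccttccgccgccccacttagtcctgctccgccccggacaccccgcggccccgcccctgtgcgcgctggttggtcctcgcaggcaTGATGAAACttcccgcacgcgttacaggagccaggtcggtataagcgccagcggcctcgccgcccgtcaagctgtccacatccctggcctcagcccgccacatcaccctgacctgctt
CACGTG was present in 7.26% of all 35116 promoter windows, and 8.77% of genes had a window with it. Of the 15 protein-coding genes with an upward ratio that RefSeq windows covered, 5 had it: FNIP1, NEU1, BRI3, BHLHE41 and KLF4. None of the 10 covered genes with a downward ratio did. SQSTM1 and FLCN were not among the genes with it, being either without a match or not covered. TGATGNAAN was present in 3.61% of windows and 4.45% of genes. It occurred in 0 of the 15 upward genes and in 2 of the 10 downward genes, ASNS and HMGN5. TGACNNNGC, the core of the antioxidant response element, was present in 13.3% of windows and 16.1% of genes. It occurred in 1 of the 15 upward genes, BRI3, where the printed sequence does not mark it, and in 2 of the 10 downward genes, PKM and RRM1. The ASNS match began 68 bases before the start, and the other of its 2 windows was not used. A match in these letters is a description of the window and shows neither binding nor which factor would bind.

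At the high dose, 42 genes (0.318% of those past the filter) were at least 2-fold above the vehicle mean and 67 (0.507%) at least 2-fold below it. At the medium dose 24 genes (0.182%) were higher and 10 (0.0757%) lower. At the low dose 11 (0.0833%) were higher and 7 (0.053%) lower. Ratios that grew over the doses made up 0.242% (higher) and 0.167% (lower) of genes. Set against the low dose library instead, the high dose library was 2-fold or more above it in 34 genes (0.257%) and below it in 83 (0.628%). Among the growing genes, 12 of 32 higher and 10 of 22 lower ones also passed 2-fold in that comparison within the library set. Without vehicle replicate 2, 14 ratios grew downward, and without vehicle replicate 3, 16 genes were 2-fold lower at the medium dose.

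The typical gene varied little among vehicle libraries, with a median SD of 0.101 on the log2 scale. In 80 of the 13213 genes (0.605%) the vehicle libraries themselves spanned 2-fold, and 1 of the 54 growing genes was among these. The high dose library lay outside the vehicle range in all 54, by 0.24 to 1.95 log2 units. That alone is a weak criterion, since it lay above all 3 vehicle libraries in 50.6% of all genes and below them in 23.2%. The median gene was 0.11 above the vehicle at the high dose on the log2 scale of CPM, against 0.03 for the medium dose and 0.04 for the low dose. Scaling by TMM, which sets that median near 0, gave 27 higher and 101 lower genes at the high dose, and 16 upward against 51 downward ratios. The 16 were all among the 32, and the 22 downward genes were all among the 51.

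Totals were 22266982 to 25931147 expected counts in the Polygalae libraries and 26739231 to 30446712 in the vehicle libraries. Ribosomal protein genes took 4.60 to 4.99% of counts with the extract and 4.63 to 5.37% with vehicle, and mitochondrially encoded genes 9.27 to 9.94% and 9.21 to 12.1%. Of 15 colorectal epithelial markers, 14 reached 1 CPM. Of 15 leukocyte and blood markers, 6 were at 0 in all 6 libraries, among them CD3E, MS4A1 and HBB, and the list's summed level of 1015 to 1461 CPM with the extract and 1431 to 1545 CPM with vehicle was almost wholly LYZ. Fibroblast markers summed to 1.94 to 2.60 CPM with the extract and 2.00 to 3.05 CPM with vehicle, with PDGFRA at 0. Endothelial markers summed to 2.51 to 2.83 CPM and 3.09 to 3.70 CPM, with CDH5 and EMCN at 0. Hepatocyte markers summed to 206 to 332 CPM and 321 to 344 CPM, nearly all of it SERPINA1.

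As a single library, the high dose stood above most of the series. The 51 libraries of the 6 other extracts outside set 11 had a median of 25 genes past 2-fold from the vehicle mean. They ranged from 16 to 104 apart from 1 Yijin-tang low dose library with 2561, which stands apart from its replicates. The Polygalae high dose library had 109 and the Aucklandiae Radix high dose library, the other extract of set 11, had 1612. All these counts used the filter built on the vehicle and Polygalae libraries, so genes raised from low values by another extract alone could be missed. Of the 32 upward genes, 26 were higher in the Polygalae high dose library than in all 51, and 18 of the 22 downward genes were lower than in all 51. Both counts follow in part from the choice of these genes by the distance of that same library from the vehicle. The share over all genes was not counted.

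**Figure D1:**
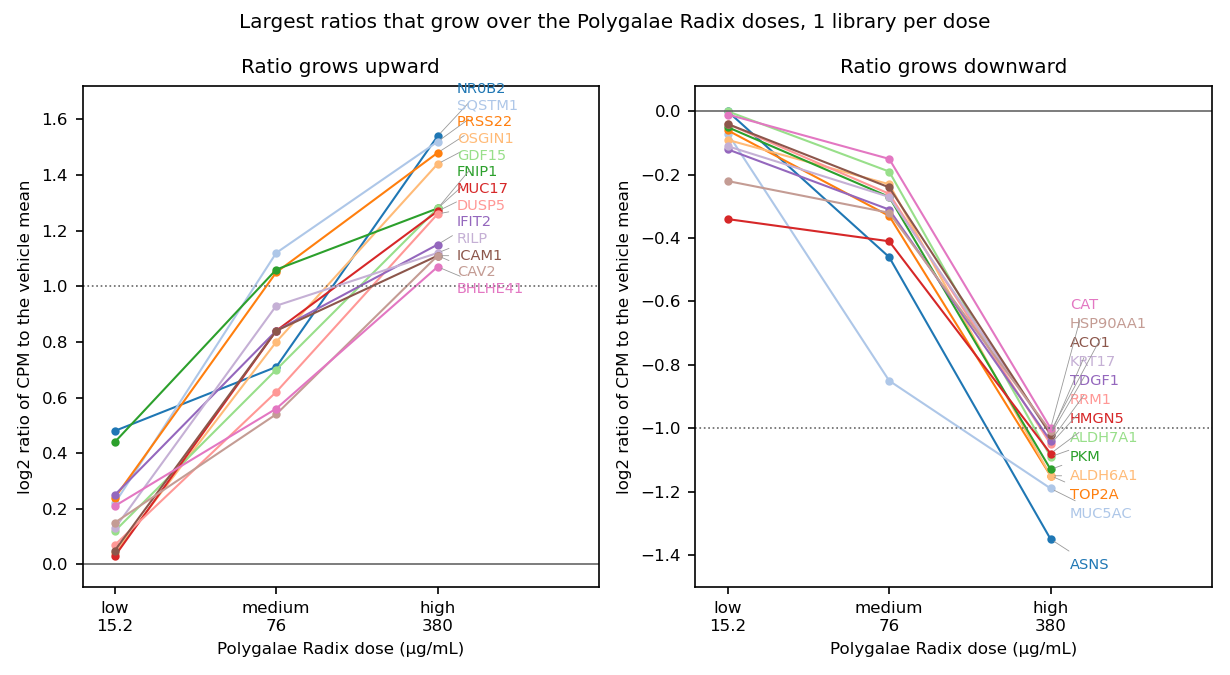
Log2 ratio of CPM to the vehicle mean (vertical axis) at the low, medium and high dose in µg/mL (horizontal axis) for the named genes with the largest growing ratios, 1 library per dose; the dotted line marks 2-fold. Upward ratios were already spread at the medium dose, with SQSTM1, FNIP1 and PRSS22 past 2-fold there, while every downward ratio passed 2-fold at the high dose only.

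Upward and downward ratios differed in their course. The 32 upward genes had median log2 ratios of 0.23, 0.84 and 1.21 at the low, medium and high dose, and 9 of them were already 2-fold at the medium dose. Of these 9, 3 were unnamed noncoding IDs with identical ratios (1.01, 1.27 and 1.79), so they may hold the same reads and not count as separate genes. SNORD3B-2 and the readthrough locus BCL2L2-PABPN1 were also among the 9. The 22 downward genes had medians of -0.09, -0.33 and -1.11, and 0 were 2-fold at the medium dose. These medians follow in part from how the genes were chosen. Protein-coding genes made up 20 of the upward and 15 of the downward ratios, and the rest were noncoding RNAs, pseudogenes and unnamed IDs.

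Autophagy and lysosome genes included several of the upward ratios. Of 30 listed genes, 28 passed the filter, and 3 of these had an upward 2-fold growing ratio, beside 0.242% of all genes: SQSTM1, FNIP1 and FLCN. SQSTM1, the p62 cargo receptor of autophagy and a binding partner of the NRF2 inhibitor KEAP1, had 341, 350.3 and 352.2 CPM in the vehicle libraries, then 403.8 CPM at the low, 757.8 CPM at the medium and 1001 CPM at the high dose. The vehicle libraries differed by little (SD 0.02 on the log2 scale), and each dose lay above them, with log2 ratios of 0.22, 1.12 and 1.52. Its expected counts were fractional in all 6 libraries, so some of its reads were shared with other loci or isoforms. FNIP1, the folliculin-interacting protein that signals nutrient state to mTORC1, had 27.1, 27.6 and 25.4 CPM with vehicle, then 36.3, 56.1 and 65.7 CPM over the doses. No other library of the 60 reached its high dose level, and the 51 libraries outside set 11 stayed between 19.6 and 35.6 CPM. FLCN, folliculin itself, had 17.0, 16.0 and 13.7 CPM with vehicle, then 18.6, 29.5 and 32.9 CPM, and it too was highest of all 60 at the high dose. For both partners most of the difference was present at the medium dose, with log2 ratios of 1.06 (FNIP1) and 0.90 (FLCN).

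NEU1, RILP and BRI3 are outside the list and are given because they met the growth rule. NEU1, the lysosomal sialidase, had 50.1, 46.2 and 46.9 CPM with vehicle, then 54.3, 92.6 and 96.5 CPM. RILP, which links RAB7 on late endosomes to the dynein motor, had 2.49, 2.95 and 2.66 CPM with vehicle and 3.01, 5.60 and 6.44 CPM over the doses. BRI3, a small membrane protein whose promoter is printed above, had 76.5, 71.5 and 68.4 CPM with vehicle, then 78.7, 116.6 and 149.9 CPM; it was chosen after its values were seen. Other list members had smaller ratios: NPC2, which carries cholesterol out of lysosomes, had log2 ratios of 0.04, 0.64 and 0.51, and the lysosomal channel MCOLN1 had -0.01, 0.42 and 0.45. Further members did not have a growing ratio: LAMP2 had 0.43 at the medium and 0.12 at the high dose, CTSD had 0.33 and 0.09, and LAMP1 (-0.15), CTSB (-0.31) and ATP6V1A (-0.44) were lower at the high dose. TFEB itself had -0.22, -0.42 and -0.19. The list's median was 0.10, 0.23 and 0.18 at the 3 doses, beside 0.04, 0.03 and 0.11 over all genes. At the high dose 20 of its 28 genes lay above the vehicle range and 6 below it, beside 50.6% and 23.2% of all genes. Under TMM scaling its high dose median was 0.06.

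**Figure D2:**
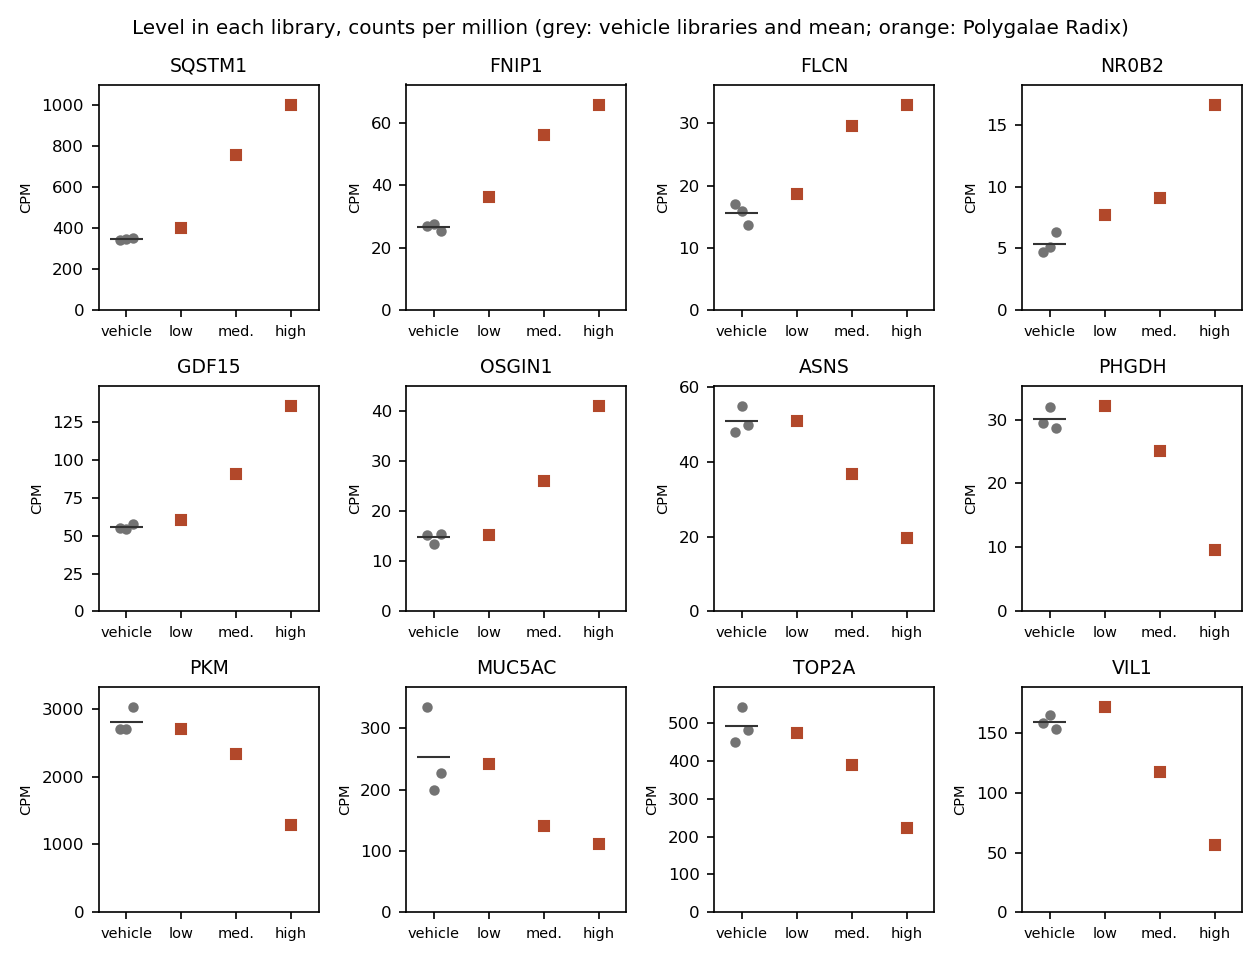
Level in CPM (vertical axes, each starting at 0) of 12 genes in the 3 vehicle libraries (grey points, line at their mean) and in the low, medium and high dose libraries of Polygalae Radix (orange). SQSTM1, FNIP1 and FLCN are well above the vehicle by the medium dose, while PKM, TOP2A and VIL1 sit far below the vehicle at the high dose and nearer to it at the medium dose.

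NRF2 targets lay on both sides of the vehicle at the high dose. Of 28 listed genes, 27 passed the filter, and SQSTM1 and OSGIN1 had upward 2-fold growing ratios, beside 0.242% of all genes. OSGIN1, an oxidative stress-induced growth inhibitor, had 15.3, 13.5 and 15.5 CPM with vehicle, then 15.2, 26.1 and 41.0 CPM. HMOX1, the heme-degrading oxygenase, had 10.6, 11.1 and 11.0 CPM with vehicle, then 12.5, 16.8 and 20.8 CPM, a log2 ratio of 0.90 at the high dose. GCLC, the catalytic subunit of glutathione synthesis, sat just under 2-fold at 0.96, with 150.8 CPM at the high dose against 72.9 to 85.8 CPM with vehicle. The ferritin chains reached 0.89 (FTH1) and 0.88 (FTL), and the cystine importer SLC7A11 reached 0.80. On the other side, NQO1, the quinone reductase often read as an NRF2 marker, had 466.7, 481.1 and 461.7 CPM with vehicle, then 463.6, 401 and 307.3 CPM, the lowest value of all 60 libraries. TKT, a transketolase of the pentose phosphate pathway, was also lower at the high dose (-0.72). NFE2L2, the gene of NRF2 itself, had a log2 ratio of 0.40, and GPX2 one of 0.12. At the high dose 15 of the 27 genes lay above the vehicle range and 9 below it, beside 50.6% and 23.2% of all genes, and the list's median was 0.21.

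Members of the ATF4 list lay on both sides of the vehicle at the high dose. ASNS, asparagine synthetase, had 48.0, 54.9 and 49.8 CPM with vehicle, then 50.8 CPM at the low, 36.8 CPM at the medium and 19.6 CPM at the high dose, the lowest level of all 60 libraries. That is 38.5% of the vehicle mean, a log2 ratio of -1.35. PHGDH, the first enzyme of serine synthesis, had 29.5, 32.0 and 28.6 CPM with vehicle, then 32.1, 25.1 and 9.68 CPM. Its ratios of 0.10, -0.26 and -1.58 miss the growth rule by the sign at the low dose. PSAT1 (-0.67) and SHMT2 (-0.87), the next serine and one-carbon enzymes, were each below all other libraries. GDF15, a secreted stress cytokine, had 54.9, 54.3 and 57.8 CPM with vehicle, then 60.7, 91.0 and 135.6 CPM, above all other libraries. PPP1R15A (GADD34), which helps dephosphorylate eIF2-alpha, reached 0.93, and ATF3 reached 0.69. Other stress genes of the list had smaller or negative ratios, with TRIB3 at 0.23, DDIT3 at 0.22, SESN2 at -0.19, DDIT4 at -0.45 and CHAC1 at -0.46. ATF4 itself had a ratio of 0.14, and the amino acid carriers SLC7A5 (0.04) and SLC1A5 (0.05) stayed near the vehicle. Of the 26 genes past the filter, 10 lay above and 13 below the vehicle range, beside 50.6% and 23.2% of all genes. Their median was -0.08 at the high dose, beside 0.11 over all genes.

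Several glycolysis enzymes were lower at the high dose. PKM, pyruvate kinase, had 2699, 2705 and 3023 CPM with vehicle, then 2707, 2330 and 1284 CPM, or 45.7% of the vehicle mean at the high dose. LDHA, lactate dehydrogenase A, had 884.7, 955.7 and 966.6 CPM with vehicle, then 853, 750.5 and 483.2 CPM. PGK1 (-0.92), ENO1 (-0.89) and GPI (-0.83) had similar ratios, and all 5 enzymes were lower than in any of the other 59 libraries. Of the 26 hypoxia and glycolysis genes past the filter, PKM alone had a 2-fold growing ratio and none was 2-fold higher. HK2 (0.07), PFKP (-0.01) and PGAM1 (-0.04) were near the vehicle, and ENO2 (0.44) and PFKFB3 (0.52) were above it. Among members induced by low oxygen, ADM had 0.64, BNIP3 0.66, VEGFA 0.14, EGLN3 0.04, NDRG1 -0.13, BNIP3L -0.19 and CA9 -0.71. The list's median was -0.16, beside 0.11 over all genes. Of the 26 genes, 9 lay above the vehicle range and 14 below it, beside 50.6% and 23.2% of all genes.

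Most G2/M genes were modestly lower at the high dose, while DNA replication genes lay on both sides of the vehicle. TOP2A, the topoisomerase of dividing cells, had 449.9, 541.4 and 481.3 CPM with vehicle, then 472.1, 389.9 and 221.3 CPM. RRM1, the large subunit of ribonucleotide reductase, had 240.6, 245.3 and 235.3 CPM with vehicle, then 234.6, 200.1 and 115.5 CPM. Of 30 G2/M and mitosis genes, 24 were below the vehicle range at the high dose and 0 above it, beside 23.2% and 50.6% of all genes. Their medians were -0.08, -0.17 and -0.24 over the doses, and TOP2A alone had a 2-fold growing ratio. The 30 DNA replication genes had a median of 0.02, and 13 lay above the vehicle range and 12 below it, with RRM1 at one end and CDT1 (0.78) and CCNE2 (0.76) at the other. CDKN1A, the p21 inhibitor of cyclin-dependent kinases, had 11.7, 10.6 and 10.1 CPM with vehicle, then 11.8, 14.7 and 22.5 CPM. Of 20 p53 target genes, CDKN1A and GDF15 had upward 2-fold growing ratios, beside 0.242% of all genes. The list's median of 0.07 turned to -0.05 under TMM scaling. In bulk RNA, fewer cells expressing a gene and less RNA per cell cannot be told apart.

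Heat shock genes were the list with the lowest median at the high dose among lists of 8 or more genes past the filter: -0.22, -0.26 and -0.47 over the doses. HSP90AA1, the inducible HSP90 chaperone, had 995.8, 1357 and 1171 CPM with vehicle, then 1010, 940.1 and 583.5 CPM, the lowest level of all 60 libraries. HSP90AB1 (-0.79) and HSPD1 (-0.68) followed, and 10 of 13 genes lay below the vehicle range, beside 23.2% of all genes.

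**Figure D3:**
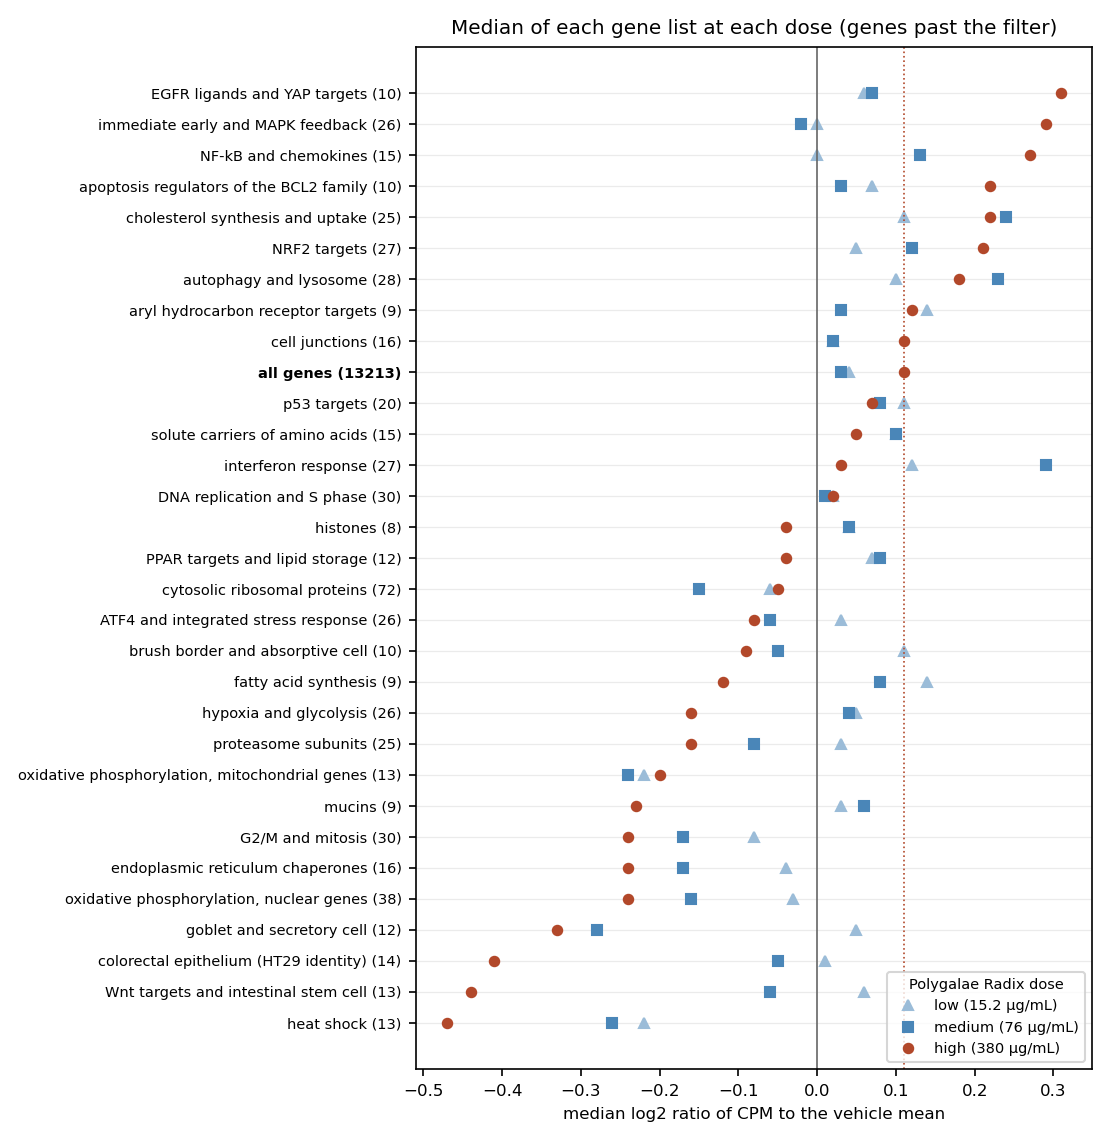
Median log2 ratio of CPM to the vehicle mean (horizontal axis) of each gene list with at least 8 genes past the filter, at the low (triangle), medium (square) and high dose (circle), with the number of genes in brackets. The dotted line is the high dose median of all genes (0.11); heat shock, Wnt target and epithelial identity genes lie farthest below it, and EGFR ligand, immediate early and NF-kB genes farthest above it.

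Most HT29 identity genes were lower at the high dose. VIL1, villin of the brush border, had 159, 165.1 and 153.9 CPM with vehicle, then 171.9, 117.9 and 56.3 CPM, below all other libraries. The 14 HT29 identity genes had a median of -0.41 at the high dose and 10 of them lay below the vehicle range, among them KRT8 (-0.57), while CDX2 (0.36) and CEACAM5 (0.43) lay above it. Wnt target and intestinal stem cell genes had a median of -0.44, with NKD1 at -0.84 and ASCL2 at -0.80, and none of the 13 had a growing ratio past 2-fold. The brush border list, which holds VIL1, had a median of -0.09 over the 10 genes past the filter, with 3 above the vehicle range and 5 below it. The 16 cell junction genes had a median of 0.11, or -0.01 under TMM scaling, with 9 above the range and 5 below it. Over all genes, 50.6% lay above the vehicle range and 23.2% below it, and the median was 0.11.

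The 2 mucins with growing ratios went opposite ways. MUC5AC, a secreted gel-forming mucin, had 335, 199.6 and 227.9 CPM with vehicle, then 242.4, 140.9 and 111 CPM. Its vehicle libraries were widely spread (SD 0.39 on the log2 scale), and the low dose lay inside their range. MUC17, a transmembrane mucin, had 6.78, 5.31 and 6.27 CPM with vehicle, then 6.24, 11.3 and 15.5 CPM. MUC2, the main mucin of goblet cells, had a ratio of -0.55, with 33.0, 17.0 and 18.9 CPM in the vehicle libraries and 15.5 CPM at the high dose.

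The other upward genes described here have varied roles. NR0B2, the small heterodimer partner that represses bile acid synthesis downstream of FXR, had 4.68, 5.09 and 6.31 CPM with vehicle, then 7.68, 9.09 and 16.6 CPM. Its high dose value has an exact 95% Poisson interval of 15.1 to 18.2 CPM, which covers counting error only, and the other 59 libraries lay below it. PRSS22, a secreted serine protease, had 16.7, 14.7 and 13.2 CPM with vehicle, then 17.7, 31.2 and 42.3 CPM. DUSP5, the nuclear phosphatase that switches off ERK, had 4.48, 4.60 and 4.04 CPM with vehicle, then 4.63, 7.00 and 11.1 CPM. BHLHE41, a circadian repressor, had 188.5, 190.9 and 178.6 CPM with vehicle, then 215.5, 274.3 and 392.2 CPM, above all other libraries.

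ICAM1, a leukocyte adhesion molecule and NF-kB target, had 5.53, 4.47 and 4.14 CPM with vehicle, then 4.90, 8.85 and 10.8 CPM. Of the 15 NF-kB and chemokine genes past the filter it was the sole one past 2-fold. TNFAIP2 (0.66), TNFAIP3 (0.55) and NFKBIA (0.41) were higher, and PI3 (-0.45) was lower. RELB (0.17), LCN2 (0.09) and SOD2 (-0.12) stayed close to the vehicle. The median of the 15 was 0.27, beside 0.11 over all genes. Of the 15, 10 lay above the vehicle range and 1 below it, beside 50.6% and 23.2% of all genes. IFIT2, an interferon-induced RNA-binding protein, had 3.09, 4.19 and 2.79 CPM with vehicle, then 4.09, 6.41 and 8.06 CPM. At a threshold of 1.5-fold, 7 of the 27 interferon genes past the filter grew upward, beside 2.24% of all genes, among them IFIT1 (0.68), IFIT3 (0.67) and OASL (0.61). OAS3 (-0.60) lay on the other side, and the list's median of 0.03 turned to -0.08 under TMM scaling. Of 26 immediate early and MAPK feedback genes, 21 were above the vehicle range at the high dose, beside 50.6% of all genes. Their median was 0.29, beside 0.11 over all genes. KLF4 and CAV2 completed the named set, with high dose ratios of 1.04 and 1.11. The readthrough locus BCL2L2-PABPN1 (1.32) shares exons with its neighbours and is uncertain.

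Among noncoding RNAs, IGFL2-AS1 had the largest growing ratio, with 5.02, 5.65 and 5.19 CPM with vehicle, then 6.69, 22.0 and 23.3 CPM. NEAT1, the scaffold of nuclear paraspeckles, had 319.1, 297.8 and 267.4 CPM with vehicle, then 375.4, 529.7 and 741 CPM, above all other libraries. UCA1 reached 1.17. The strand setting of the counting was not given in the sources used here, so antisense names such as IGFL2-AS1 may hold reads of an overlapping gene. These 3 were named after their values were seen.

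Further downward genes held enzymes of mitochondria and peroxisomes. ALDH6A1 and ALDH7A1, aldehyde dehydrogenases of valine and lysine breakdown, had ratios of -1.15 and -1.09 at the high dose. CAT, the peroxisomal catalase, had 82.9, 90.2 and 85.6 CPM with vehicle, then 85.6, 77.9 and 42.7 CPM. ACO1, the cytosolic aconitase that doubles as an iron sensor, was at -1.02 and lower than in any other library. ABCG1, a cholesterol exporter and LXR target, had 2.46, 2.51 and 2.40 CPM with vehicle, then 1.98, 1.55 and 0.771 CPM. Its Poisson interval was 0.471 to 1.19 CPM at the high dose. The 7 LXR targets past the filter had a median of 0.17 at the high dose. Of them, 5 lay above the vehicle range and 2 below it, beside 50.6% and 23.2% of all genes. ABCG1 alone of the 7 was 2-fold lower. TDGF1 (-1.04), KRT17 (-1.02) and HMGN5 (-1.08) were the other named genes. Of 25 cholesterol synthesis and uptake genes, 18 lay above the vehicle range at the high dose, beside 50.6% of all genes, and none was past 2-fold. Their medians were 0.11, 0.24 and 0.22, beside 0.04, 0.03 and 0.11 over all genes.

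The growth rule left out 38 genes whose ratios were ordered downward over the doses and passed 2-fold at the high dose, because the low dose lay at or above the vehicle mean by up to 0.52. VIL1 and PHGDH belong here. So do ALDH1A1, a retinaldehyde dehydrogenase, with 735.5, 823.5 and 758.1 CPM with vehicle, then 790.2, 579.6 and 288 CPM, and HADHA, of mitochondrial fatty acid oxidation, at -1.24. Long cytoskeletal genes belong here too: MYH9, non-muscle myosin, had 835.6, 816.4 and 786.9 CPM with vehicle, then 899, 704.3 and 343.9 CPM. IQGAP1 (-1.26), TLN1 (-1.07), DYNC1H1 (-1.06) and FLNA (-1.02) had like ratios. These genes were named after their values were seen.

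The same 5 cytoskeletal genes were lower still in the Yijin-tang library that stands apart, where MYH9 had 291.1 CPM and IQGAP1 169.7 CPM. Of the 60 ordered downward genes, 16 were at least 2-fold lower in that library, where 13.0% of all genes were. Of the 22 that met the growth rule, 3 were. In the same library, 5 of the 32 upward genes were at least 2-fold higher, beside 843 of all 13213 genes. Among upward genes named above, BRI3 had a log2 ratio of 1.08 there and RILP 0.95, while FNIP1 had -0.43 and FLCN -0.17. The part of library quality in these values was not tested. With genes in 5 equal bins by their longest protein-coding transcript in GENCODE 29, the high dose median was 0.13 in the bin of the longest and 0.02 in that of the shortest. The count of 2-fold lower genes was 15 in the bin of the longest and 7 in that of the shortest, and the part of transcript length was not tested. By abundance, 13 of the 878 genes averaging 200 CPM or more were 2-fold lower and 3 were 2-fold higher, and their median was -0.03.

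A few genes were at least 2-fold from the vehicle at the medium dose and closer to it by 0.5 log2 units or more at the high dose. Only named protein-coding genes with at least 5 CPM in the vehicle mean or the medium dose library were searched. SLC6A20, a proline transporter, had 6.01, 7.48 and 6.37 CPM with vehicle, then 6.24, 14.2 and 9.33 CPM. RAB43 (-0.87, -1.20 and -0.57) and CTAGE8 (1.21, 1.07 and 0.55, highest at the low dose) met the same rule, but their counts were fractional in all 6 libraries. UAP1L1, named after its values were seen, did not meet it: it had 5.21, 4.79 and 4.30 CPM with vehicle, then 4.76, 18.5 and 15.0 CPM. Among named protein-coding genes with at least 5 CPM in the vehicle mean or the high dose library, a further search was made. None was 2-fold from the vehicle at all 3 doses with a spread under 0.5 between the doses.

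Just inside the 2-fold threshold were NEU1 (1.01), CDKN1A (1.02) and KLF4 (1.04) upward, and CAT (-1.0), HSP90AA1 (-1.01) and KRT17 (-1.02) downward. Just outside it were RND3, RUSC2 and GCLC, each at 0.96, and AP2B1 (-0.99), EDN1 (-0.98) and CLU (-0.97). EDN1, the endothelin-1 precursor, was lower at every dose, with 25.6, 26.6 and 26.0 CPM with vehicle, then 16.7, 13.3 and 13.0 CPM. The 51 libraries of the other extract sets had 15.7 to 24.4 CPM and the 3 Aucklandiae Radix libraries 18.7, 17.0 and 5.92 CPM, all below every vehicle library.

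**Figure D4:**
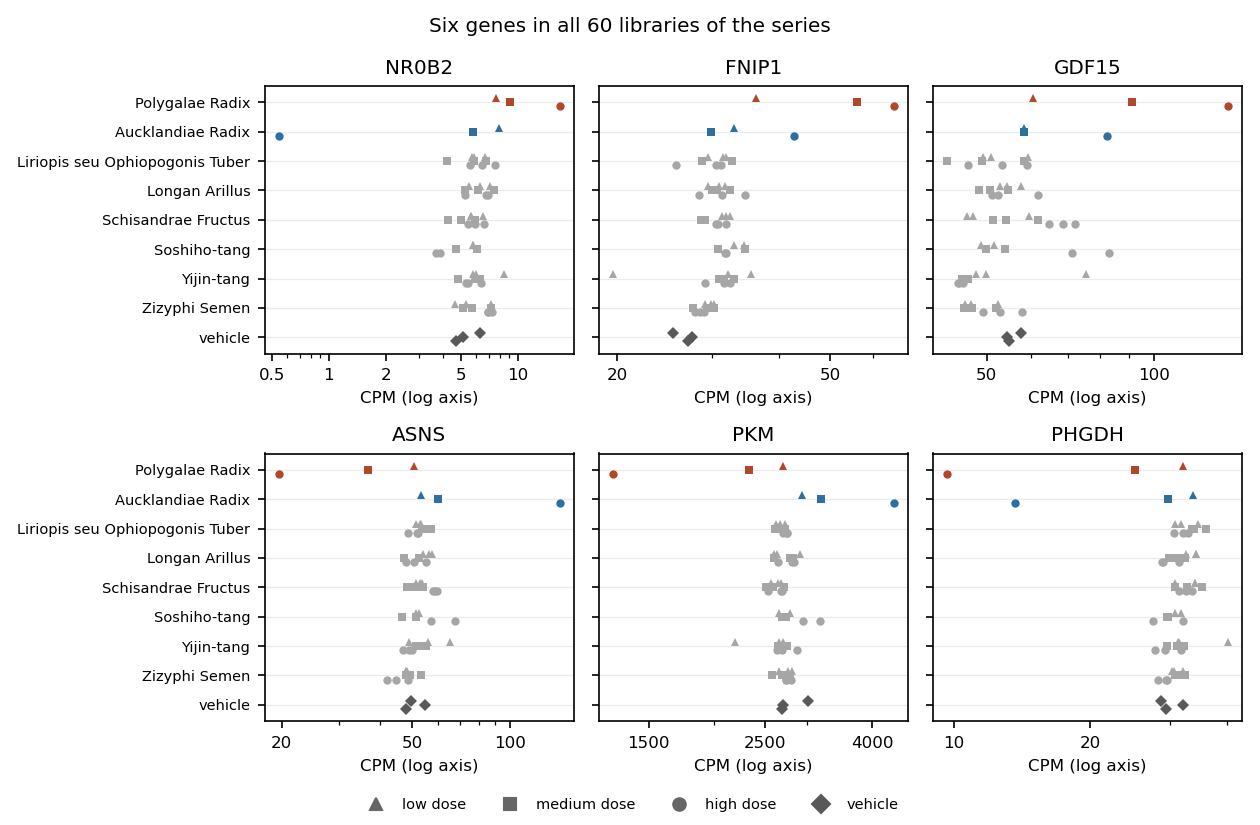
CPM on log axes of 6 genes in all 60 libraries, by extract (rows) and dose (triangle low, square medium, circle high, diamond vehicle). The Polygalae high dose library is highest of all in NR0B2, FNIP1 and GDF15 and lowest of all in ASNS, PKM and PHGDH. Among the growing genes, it was highest of all 60 in 9 of the 32 upward ones and lowest in 11 of the 22 downward ones. The drawn genes are therefore not typical of all growing genes.

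Aucklandiae Radix, the other herb of set 11, was given at slightly different doses (14.8, 74 and 370 µg/mL) and shares the vehicle libraries, so values are set side by side only. In its high dose library, 4.88% of genes were 2-fold higher and 7.32% 2-fold lower than the vehicle. Of the 32 upward Polygalae genes, 22 were at least 2-fold higher there, and of the 22 downward genes, 8 were at least 2-fold lower. SQSTM1 had 1001 CPM with Polygalae and 1628 CPM with Aucklandiae at the high doses, and OSGIN1 had 41.0 and 69.2 CPM. NR0B2 lay on opposite sides, with 16.6 CPM with Polygalae and 0.545 CPM with Aucklandiae. So did ASNS, with 19.6 and 141.4 CPM, and PKM, with 1284 and 4401 CPM. FNIP1 had 65.7 and 42.7 CPM, and at the medium doses 56.1 and 29.9 CPM. In all, 3 of the 32 upward and 6 of the 22 downward genes lay on the opposite side of the vehicle in the Aucklandiae high dose library. The share of all genes on opposite sides was not counted, so these counts show neither likeness nor its lack. The median over all genes was -0.08 in that library and 0.11 in the Polygalae high dose library.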

How the data were processed

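Expected counts per gene from RSEM 1.3.3 were deposited by the authors; STAR 2.7.3a, Trim Galore 0.6.5, FastQC 0.11.9 and the build GRCh38 are named in the submitters' processing notes, and the annotation release and strand setting were not given in the sources used here. Libraries held total RNA read as 100 bp pairs, with an RNA integrity number over 7, per the labels' protocols. CPM was computed over all gene IDs, ratios used a pseudocount of 0.5 CPM, and genes needed a mean of 1 CPM over the 4 conditions. Symbols came from the reference gene tables, and 776 of 778 list entries were found. With 1 library per dose no test was made. The 39 lists and the members were chosen with earlier results of these data known. Named genes were the 14 largest growing ratios each way with at least 5 CPM, growing members of the lists, genes that peaked at the medium dose and those nearest the threshold; list members beyond this rule, and others so marked, were picked after their values were seen. Alternatives were TMM (edgeR 4.0.16) and DESeq2 1.42.0 size factors, pseudocounts of 0.1 and 2 CPM, filters, a 1.5-fold threshold and leaving out each vehicle library. Python 3.11.15 and R 4.3.3 were used. Depth limits the precision of single libraries, and counting intervals cover counting error only.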

Additional observations from a re-analysis of the deposited data

How the results depend on the processing

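No paired analysis was possible because the results come from no test and the extract has replicate 1 only. Counts below are higher then lower genes at the high, medium and low dose, then growing upward and downward, then high against low dose, where they moved by over 1.5 times. At 1.5-fold they were 491 and 412, 155 and 72, 69 and 48, 296 and 121, and 334 and 526. A pseudocount of 2 CPM gave 24 and 32, 13 and 3, 4 and 2, 18 and 9, and 14 and 47. A pseudocount of 0.1 CPM gave 68 higher at the high dose, 39 and 22 at the medium, 22 and 12 at the low, and 63 and 130 for high against low. A filter at a mean of 5 CPM gave 44 lower at the high dose, 14 and 2 at the medium, 7 and 1 at the low, 14 growing downward, and 18 and 49 for high against low. No filter gave 38 and 31 at the medium dose, 19 and 32 at the low, and 73 higher for high against low. TMM scaling gave 27 and 101 at the high dose with 16 and 51 growing, and DESeq2 size factors 17 and 46 growing. Dropping the condition on the side of 0, chosen after seeing the data, gave 60 growing downward. The cause of these moves was not tested beyond what each setting fixes. Higher genes made up 38.5% of high dose calls, against 21.1% under TMM and 22.2% under size factors, and 29.1% of calls for high against low dose, against 19.5% and 18.05%. Growing ratios were 59.3% upward, against 23.9% and 27.0%.

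Leaving out each vehicle library in turn gave 42 to 58 higher and 57 to 76 lower genes at the high dose, 25 to 26 and 10 to 16 at the medium, 8 to 16 and 6 to 10 at the low, and 26 to 36 upward and 14 to 26 downward growing ratios. No named gene past 2-fold changed sign under any setting tried. Ratios of NR0B2, SQSTM1, FNIP1, GDF15, OSGIN1, ASNS, PKM, TOP2A and RRM1 stayed past 2-fold in all of them. Those of FLCN (0.94 to 1.12), NEU1 (0.89 to 1.04), ICAM1 (0.93 to 1.23), MUC5AC (-1.34 to -0.94), HSP90AA1 (-1.13 to -0.89) and ABCG1 (-1.55 to -0.68) crossed it. With 1 library per dose, the spread within a dose is unknown, and the depth of 22266982 to 30446712 counts does not stand in for it.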

Other observations

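The lipid list had a median of -0.04 at the high dose. Of its 12 genes past the filter 5 lay above the vehicle range and 5 below it, beside 50.6% and 23.2% of all genes. PLIN4, a lipid droplet coat protein, had 9.50, 9.42 and 8.31 CPM with vehicle, then 12.7, 15.8 and 16.5 CPM over the doses, and PLIN2 had log2 ratios of 0.07, 0.52 and 0.66. HILPDA (0.16), ACSL1 (0.02) and CPT1A (-0.14) were nearer the vehicle at the high dose. HADHA (-1.24) and ACADVL (-0.44), enzymes of mitochondrial fatty acid oxidation, were lower. Of 38 nuclear genes of oxidative phosphorylation, 29 lay below the vehicle range and 0 above it, beside 23.2% and 50.6% of all genes. ATP5F1A, the alpha subunit of ATP synthase, was at -0.90. The proteasome list had a median of -0.16, with PSMD1 at -0.68.

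EGFR ligands and YAP targets had the highest list median, 0.31 at the high dose, 0.19 under TMM scaling. HBEGF, a membrane-shed EGFR ligand, had 9.63, 8.94 and 9.16 CPM with vehicle, then 10.9, 9.48 and 18.6 CPM. The low dose value also lay above the vehicle range, and the medium dose value lay within it. JAG1, a Notch ligand, had 27.5, 25.9 and 22.9 CPM with vehicle, then 23.9, 37.1 and 58.3 CPM. It missed the growth rule by the sign of its low dose ratio (-0.09).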
